A study of Mus musculus with 6 samples.

Results

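DNA replication genes were examined in single cells of the mouse striatum at an early postnatal and a young adult age. The set holds 43 genes of 32285 in the count table, chosen by name for their roles in copying DNA: the replicative helicase, the licensing and activation of origins, the polymerases and primase, the sliding clamp and its loader, the single-strand binding complex, the joining of Okazaki fragments, the supply of nucleotides, and chromatin assembly and cohesion behind the fork. All 43 had at least 1 UMI (unique molecular identifier, 1 counted transcript) in P3 astroglial cells. The cells came from wild type male C57BL/6 mice at postnatal day 3 (P3, 3 libraries) or at 3 months (3m, 3 libraries), with the brains of several animals pooled in each preparation and the subventricular zone left out of the dissection. They were enriched with magnetic beads against ACSA2, an astrocyte surface antigen, and profiled by droplet RNA-Seq of transcript 3′ ends. The labels do not say that the libraries of an age came from separate litters, so p-values measure the spread between these preparations. No gene was altered in either group, and age was the only difference the labels give between them.

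A eukaryotic cell copies its genome once per division. Origins are licensed before S phase, when ORC, CDC6 and CDT1 load rings of MCM2-7 onto DNA, and they fire when CDC45 and the GINS complex turn each ring into an active helicase. Polymerases, the clamp PCNA and ligase then build the new strands from a pool of deoxynucleotides that is enlarged in dividing cells. Most of these genes are transcribed under E2F control around the entry into S phase, and glial progenitors of the postnatal brain divide locally before astrocytes leave the cell cycle.

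The authors' annotation placed 9992 cells in astroglial clusters, 8874 at P3 and 1118 at 3m. The P3 cells included the clusters GPC_8 (574 cells) and GPC_9 (512 cells), named by the authors as glial progenitor cells, and no 3m cell lay in either. Astroglial UMIs per library summed to between 22327104 and 30617140 at P3 and between 1157485 and 1843998 at 3m, so a level at 3m rested on far fewer counts, and 3 UMIs in a library corresponded to 1.63 to 2.59 CPM (UMIs scaled to a library sum of 1000000) at 3m against 0.0980 to 0.134 CPM at P3. Among 16690 barcodes of the 6 libraries, 74 shared their sequence with a barcode of another library. The 6 astrocyte markers summed to 4218 to 5048 CPM at P3 and 9626 to 10684 CPM at 3m. The proliferation markers *Mki67*, *Top2a* and *Cdk1* summed to 350 to 455 CPM in P3 astroglial cells, to 31.0 to 73.1 CPM in those outside GPC_8 and GPC_9, and to a single UMI of *Top2a* over the 3 libraries at 3m. All 5 oligodendrocyte markers had UMIs in 3m astroglial cells, where they summed to 703 to 1852 CPM against 5.10 to 6.27 CPM at P3, where 3 of the 5 had a UMI and *Mog* was at 0. The 5 microglial markers were likewise higher at 3m (6.79 to 53.7 CPM against 0.269 to 1.10 CPM). Median depth was 2977 to 5326 UMIs per astroglial cell at 3m and 5456 to 9665 at P3, and the median mitochondrial share 5.97% to 8.18% against 1.27% to 2.47%. The part of these differences and of the RNA of other cells in the results was not tested.

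In the astroglial sums, 37 of 43 replication genes were called lower at 3m than at P3, and none was called higher, where called means an adjusted p of at most 0.05 and a difference of at least 1 on the log2 scale in edgeR's quasi-likelihood test. Over all 13530 genes tested, 16.3% were called lower and 15.8% higher. The replication genes had a median log2 difference (3m over P3) of -2.80, or -2.77 with genes at 0 UMIs set to their bound, against -0.04 over all genes tested. In sums that left out GPC_8 and GPC_9, 32 of 43 were called lower and none higher, with a median of -1.97 (-1.90 with bounds) against -0.03, where 13.7% of 13128 genes tested were called lower and 14.5% higher. The P3 and 3m libraries are the same in both comparisons, and the 3m sums are identical. A low-count filter let 17 genes of the set into the astroglial comparison through P3 alone, 25 were above it in all libraries of both ages, and *Orc1*, above it in neither age's full set of libraries, was tested in that comparison but not outside the progenitor clusters. Of all 13530 genes tested, 1497 (11.1%) passed through P3 alone. Outside GPC_8 and GPC_9, 20 genes of the set passed through P3 alone, against 10.9% of all genes tested, and 22 were above the filter at both ages. Through P3 alone means that all P3 libraries, but not all 3m libraries, were above the filter level. For such a gene the filter itself favored a lower level at 3m, so the counts describe the set and are not support for it. At 3m, 7 genes had 0 UMIs over the 3 libraries, 6 had 1 to 3 and 30 had more. In sums over cells, fewer cells with the transcript and less transcript per cell cannot be told apart.

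**Figure D1:**
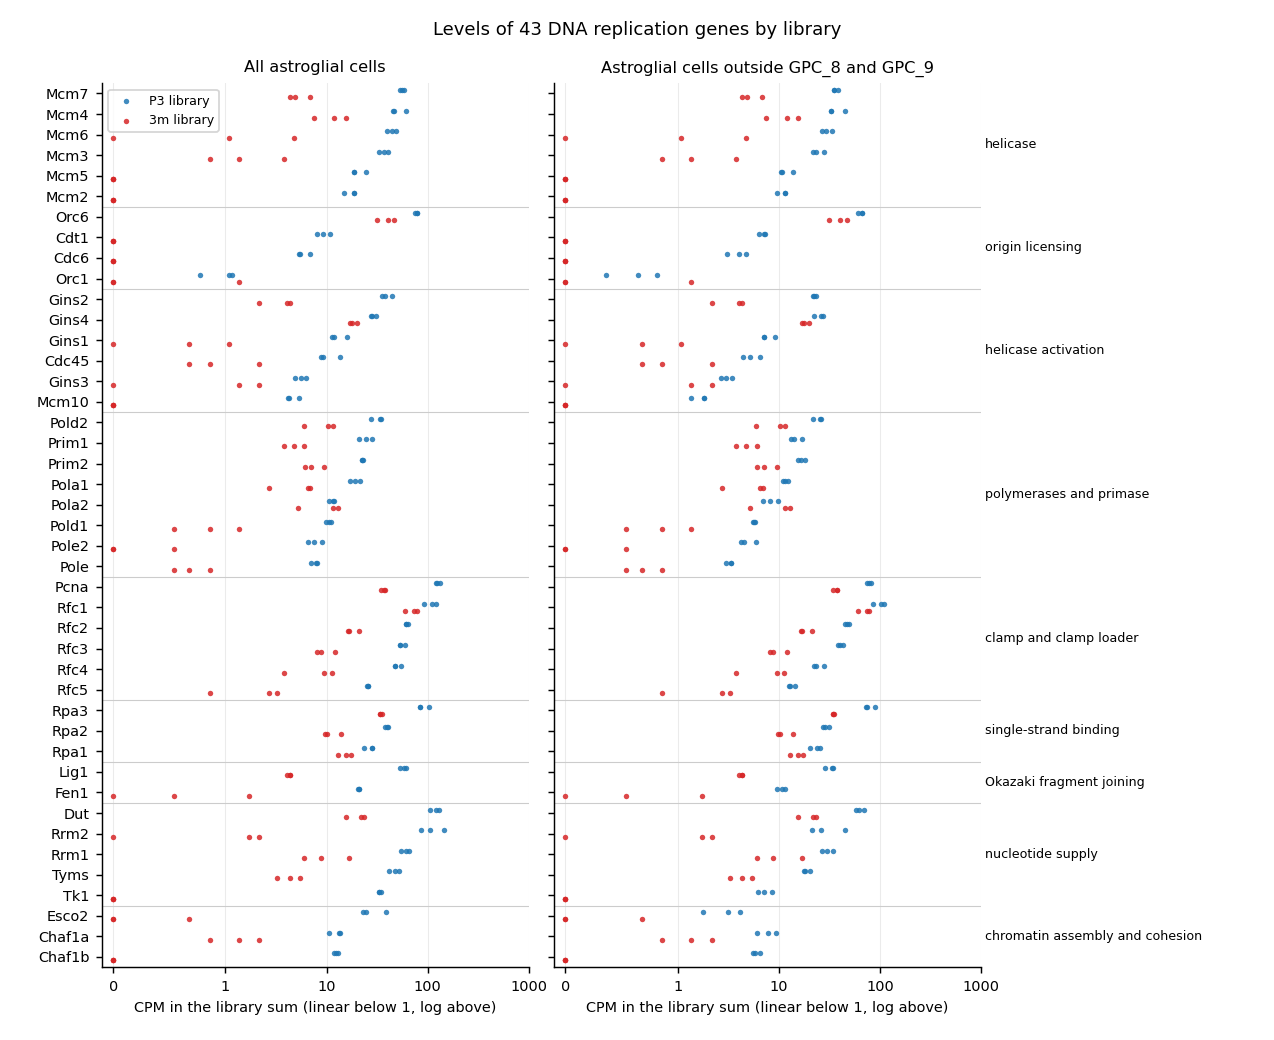
Level of each of the 43 genes in every library (CPM of the library's summed UMIs, axis linear below 1 and logarithmic above), for all astroglial cells (left) and for those outside GPC_8 and GPC_9 (right), with P3 libraries in blue and 3m libraries in red. *Mcm2*, *Mcm5*, *Cdc6*, *Cdt1*, *Mcm10*, *Tk1* and *Chaf1b* stood at 0 in all 3 libraries at 3m, while the values of *Pola2* at the ages overlapped in both panels.

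All 6 helicase genes fell with age, both with and without the progenitor clusters. *Mcm7* was at 55.3, 53.9 and 57.9 CPM in the P3 astroglial libraries and at 4.32, 4.88 and 6.79 CPM at 3m, a log2 difference of -3.18 (SE 0.23, adjusted p = 2.15e-07). Outside GPC_8 and GPC_9 its P3 level was 34.9, 35.4 and 38.7 CPM and the difference -2.53 (SE 0.25, adjusted p = 3.78e-06). No 3m library reached the lowest P3 library in either comparison. *Mcm4* was at 45.9, 46.1 and 60.9 CPM at P3 and 15.6, 11.9 and 7.47 CPM at 3m, a difference of -1.96 (SE 0.24, adjusted p = 1.85e-05), the smallest of the 6. Outside the progenitor clusters *Mcm4* differed by -1.46 (SE 0.25, adjusted p = 0.000359). *Mcm2* and *Mcm5*, with 1335 and 1579 UMIs at P3, had none at 3m, and with 3 UMIs taken as the floor of the group they were at least 25.7-fold and 30.4-fold lower. Without GPC_8 and GPC_9 these bounds were 16.1-fold and 17.2-fold. *Mcm3* and *Mcm6* had 10 and 9 UMIs at 3m in all.

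The licensing genes differed in their measured change, a contrast that was not itself tested. *Cdt1*, which brings MCM rings to origins, was at 10.8, 8.03 and 9.27 CPM at P3 and had no UMI at 3m, which makes it at least 13.8-fold lower, or 10.3-fold outside the progenitor clusters. *Cdc6*, the ATPase that loads the rings with it, likewise had no UMI at 3m against 455 at P3 (at least 8.75-fold lower). Both were called lower in both comparisons. *Orc6*, a subunit of the origin recognition complex, stayed at 40.6, 31.5 and 46.9 CPM at 3m against 78.8, 74.9 and 78.9 CPM at P3. The groups did not overlap, but the difference of -0.79 (SE 0.18, adjusted p = 0.00273) was short of the threshold of 1, and outside GPC_8 and GPC_9 it was -0.49 (SE 0.18, adjusted p = 0.0422) from P3 levels of 66.3, 61.3 and 66.1 CPM. *Orc1*, the subunit whose amount varies through the cell cycle, was sparse at both ages, with 78 UMIs at P3 (1.16, 1.08 and 0.773 CPM) and 2 UMIs in 1 library at 3m (0, 0 and 1.36 CPM). Its ratio of P3 to 3m was 2.25 with a 95% counting interval from 0.603 to 18.9, so no difference was detectable at this depth.

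Of the 6 genes that activate the helicase, 5 fell in the astroglial sums and 4 outside the progenitor clusters. *Gins2*, a GINS subunit, was at 38.2, 44.4 and 35.4 CPM at P3 and 4.32, 2.17 and 4.07 CPM at 3m (difference -3.36, SE 0.30, adjusted p = 1.56e-06), and outside GPC_8 and GPC_9 at 22.1, 23.5 and 21.6 CPM at P3 (difference -2.51, SE 0.30, adjusted p = 2.41e-05). *Gins4*, the subunit that pairs with it in the complex, was at 28.2, 30.8 and 27.6 CPM at P3 and 19.9, 17.9 and 17 CPM at 3m, a difference of -0.48 (SE 0.19) that did not pass (adjusted p = 0.0545). Outside the progenitor clusters the *Gins4* difference was -0.25 (SE 0.21, adjusted p = 0.338) from 22.3, 27.4 and 25.9 CPM, although no library overlapped between ages. Subunits of 1 complex thus differed in their measured change, a contrast that was not itself tested. *Gins3* fell in the astroglial sums (6.32, 4.90 and 5.57 CPM at P3 against 0, 2.17 and 1.36 CPM at 3m, difference -1.87, SE 0.54, adjusted p = 0.0112) but was not called outside GPC_8 and GPC_9 (2.98, 2.67 and 3.43 CPM at P3, difference -0.96, SE 0.60, adjusted p = 0.215). *Mcm10*, a helicase cofactor, lacked any UMI at 3m, a level at least 6.73-fold lower, or 2.48-fold outside the progenitor clusters. *Cdc45* had 6 UMIs at 3m and *Gins1* had 3.

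Among the 8 polymerase and primase genes, 7 fell in the astroglial sums and 5 outside the progenitor clusters. *Pold2*, the accessory subunit of polymerase delta, was at 27.8, 33.9 and 34.3 CPM at P3 and 10.4, 5.97 and 11.5 CPM at 3m (difference -1.63, SE 0.26, adjusted p = 0.000173), and without GPC_8 and GPC_9 the difference was -1.22 (SE 0.26, adjusted p = 0.00202) from 21.9, 25.4 and 26.3 CPM. *Prim1*, the catalytic primase, was at 28.1, 24.8 and 20.7 CPM at P3 against 6.05, 3.80 and 4.75 CPM at 3m (difference -2.19, SE 0.29, adjusted p = 3.76e-05), and at 16.9, 14.2 and 13.1 CPM in the P3 cells outside the progenitor clusters (difference -1.42, SE 0.30, adjusted p = 0.00179). Both stood apart between the ages in every library. *Pola2*, the regulatory subunit of polymerase alpha, was called in neither comparison. At 10.6, 11.5 and 12 CPM at P3 and 5.18, 13.0 and 11.5 CPM at 3m, the ages overlapped and the difference was 0.06 (SE 0.29, adjusted p = 0.889). Outside GPC_8 and GPC_9 its P3 level was 6.90, 8.17 and 9.82 CPM and the difference 0.54 (SE 0.32, adjusted p = 0.183), also not called. Its catalytic partner *Pola1* fell in the astroglial sums (21.5, 17.2 and 19.2 CPM against 6.91, 6.51 and 2.72 CPM, difference -1.65, SE 0.29, adjusted p = 0.000418) and was short of the threshold outside the progenitor clusters (12.4, 11.1 and 11.6 CPM at P3, difference -0.90, SE 0.31, adjusted p = 0.0328). *Prim2*, the large primase subunit, went the same way: its difference was -1.42 (SE 0.24, adjusted p = 0.000287) from 22.6, 23.0 and 22.3 CPM to 9.50, 7.05 and 6.11 CPM, and -0.95 (SE 0.25, adjusted p = 0.00785) from 15.5, 16.7 and 18.0 CPM outside the progenitor clusters. *Pole* and *Pole2* of polymerase epsilon had 3 and 1 UMIs at 3m, and *Pold1* had 4.

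Clamp and clamp loader genes were spread widely, and 5 of the 6 fell in the astroglial sums and 4 outside the progenitor clusters. *Pcna*, the sliding clamp, was at 133, 122 and 123 CPM at P3 and 38.0, 37.4 and 34.6 CPM at 3m (difference -1.59, SE 0.16, adjusted p = 5.16e-06). Without GPC_8 and GPC_9 its P3 level was 78.7, 74.6 and 81.6 CPM, and the difference of -0.87 (SE 0.16, adjusted p = 0.000812) no longer reached 1. The values of the ages were apart in both comparisons. *Rfc1*, the large subunit of the clamp loader, was at 110, 92.3 and 120 CPM at P3 and 77.8, 60.2 and 74.0 CPM at 3m, with a difference of -0.42 (SE 0.16, adjusted p = 0.0499) that was short of the threshold, and of -0.27 (SE 0.17, adjusted p = 0.208) from 102, 85.2 and 111 CPM outside the progenitor clusters. The small subunits *Rfc2*, *Rfc3*, *Rfc4* and *Rfc5* were called lower in both comparisons, with log2 differences in the astroglial sums of -1.59 for *Rfc2*, -2.36 for *Rfc3*, -2.49 for *Rfc4* and -3.19 for *Rfc5*.

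Of the 3 subunits of RPA, the single-strand binding complex, 2 fell in the astroglial sums and 1 outside the progenitor clusters. *Rpa3* was at 83.7, 102 and 83.8 CPM at P3 and 35.4, 34.2 and 34.0 CPM at 3m (difference -1.20, SE 0.19, adjusted p = 0.000163), and outside GPC_8 and GPC_9 at 74.5, 88.7 and 73.2 CPM (difference -0.98, SE 0.19, adjusted p = 0.000904). *Rpa2* was called lower in both, with 39.3, 37.9 and 41.0 CPM at P3 and 13.8, 9.76 and 10.2 CPM at 3m (difference -1.64, SE 0.20, adjusted p = 2.26e-05), and a difference of -1.18 (SE 0.21, adjusted p = 0.000624) without the progenitor clusters. *Rpa1*, the subunit that holds most DNA contacts, was called in neither, at 28.2, 23.3 and 28.3 CPM against 15.6, 17.4 and 12.9 CPM (difference -0.60, SE 0.20, adjusted p = 0.0234) and at 24.0, 20.2 and 25.5 CPM in P3 cells outside GPC_8 and GPC_9 (difference -0.37, SE 0.20, adjusted p = 0.164). Within each of the 3 genes every P3 library was above every 3m library.

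Genes that join Okazaki fragments and supply nucleotides were all called lower in both comparisons. *Lig1*, the replicative ligase, was at 61.2, 53.6 and 58.7 CPM at P3 and 4.32, 4.34 and 4.07 CPM at 3m (difference -3.57, SE 0.23, adjusted p = 7.10e-08). *Fen1*, the flap nuclease, was at 20.8, 20.3 and 20.8 CPM at P3 and had 3 UMIs at 3m (1.73, 0.542 and 0 CPM), a ratio of 30.8 with a 95% counting interval from 10.5 to 149. *Dut*, which removes dUTP, was at 120, 129 and 105 CPM against 23.3, 21.7 and 15.6 CPM (difference -2.37, SE 0.21, adjusted p = 1.36e-06). Every P3 value of these 3 genes lay above every 3m value. *Rrm2*, the small subunit of ribonucleotide reductase that is made in S phase, was at 105, 85.9 and 145 CPM at P3 and 1.73, 2.17 and 0 CPM at 3m (difference -6.17, SE 0.40, adjusted p = 8.89e-08), while its partner *Rrm1* kept 6.05, 16.8 and 8.83 CPM at 3m (difference -2.23, SE 0.26, adjusted p = 1.60e-05). *Tk1*, thymidine kinase, had 2618 UMIs at P3 and none at 3m, which puts it at least 50.4-fold lower, the largest bound in the set. Without GPC_8 and GPC_9 that bound was 10.8-fold, and the differences were -2.68 for *Lig1*, -1.43 for *Dut*, -4.28 for *Rrm2* and -1.22 for *Rrm1*.

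The genes acting behind the fork fell as well. *Esco2*, the acetyltransferase that locks cohesin on sister chromatids, was at 38.9, 24.8 and 23.0 CPM at P3 with 1 UMI at 3m (0, 0 and 0.679 CPM), a ratio of 126 with a 95% counting interval from 22.7 to 4999. Outside GPC_8 and GPC_9 *Esco2* was at 4.15, 1.76 and 3.12 CPM at P3, and the ratio was 12.9 (interval 2.29 to 513). The P3 level thus lay mostly in the progenitor clusters. *Chaf1a*, the large subunit of the histone chaperone CAF-1, was at 13.3, 10.5 and 13.7 CPM at P3 and 0.864, 2.17 and 1.36 CPM at 3m (difference -2.80, SE 0.38, adjusted p = 5.54e-05). *Chaf1b*, its partner, lacked any UMI at 3m, a level at least 18.4-fold lower, or 8.88-fold outside the progenitor clusters.

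Outside GPC_8 and GPC_9 the count of genes called lower depended on the cells and depth used. It was 20 of 28 tested when all sums were thinned down to the smallest (11.4% of genes tested called lower and 14.3% higher), 21 of 41 in cells held to more than 1000 genes and less than 5% of mitochondrial UMIs (10.6% lower, 8.90% higher), and 18 of 38 when P3 and 3m cells with a UMI of *Mki67*, *Top2a* or *Cdk1* were also left out (12.1% lower, 14.3% higher). Of the cells held to more than 1000 genes, only 12, 137 and 88 remained in the 3m libraries, with 50876, 507515 and 355535 UMIs. With the cells that held a marker UMI left out, *Mcm2*, *Mcm3*, *Mcm5*, *Mcm6*, *Mcm7*, *Cdt1*, *Gins1*, *Gins2*, *Fen1*, *Lig1*, *Rrm2*, *Tyms*, *Chaf1b*, *Rfc3*, *Rfc5*, *Pold1*, *Pold2* and *Pole2* were still called lower. *Pola2* was called higher (difference 1.06, adjusted p = 0.0191). The other genes tested were not called: *Mcm4*, *Pcna*, *Dut*, *Rrm1*, *Prim1*, *Prim2*, *Pola1*, *Pole*, *Rfc1*, *Rfc2*, *Rfc4*, *Cdc45*, *Gins3*, *Gins4*, *Orc6*, *Chaf1a* and the 3 RPA genes. *Cdc6*, *Tk1*, *Esco2* and *Mcm10*, called lower with those cells included, were no longer tested.

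Of 52 other genes with roles in replication, listed beside the set, 38 were called lower and none higher in the astroglial sums, with a median difference of -1.97. Outside GPC_8 and GPC_9 it was 31 of 52, 50 of which were tested. The 5 with the largest fitted fall in the astroglial sums were *Ccna2*, the S-phase cyclin, *E2f7* and *E2f8*, repressors of the E2F family, *Dscc1*, of an alternative clamp loader, and *Shmt1*, of thymidylate synthesis. None of the 5 had a UMI at 3m, against 4227 of *Ccna2*, 765 of *E2f8*, 755 of *Shmt1*, 617 of *Dscc1* and 362 of *E2f7* at P3. With 3 UMIs as the floor, they were at least 81.3-fold (*Ccna2*), 14.7-fold (*E2f8*), 14.5-fold (*Shmt1*), 11.9-fold (*Dscc1*) and 6.96-fold (*E2f7*) lower. *Uhrf1*, with 1 UMI at 3m, had a ratio of P3 to 3m of 113 (counting interval 20.2 to 4447). *Hells*, with 2 UMIs, had a ratio of 89.8 (24.8 to 742). The order of the fitted falls is thus not an order of measured falls.

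Promoter sequences were read for the members that the RefSeq promoter table holds (assembly GRCm38.p6, 250 bases before to 50 bases after each start), which was 35 of the 43 genes with 40 windows. E2F words, searched as TTTCCCGC, TTTGGCGC, TTTCGCGC or TTTGCCGC on both strands, occurred in 13 of the 35 genes (37.1%) and in 2.60% of all 27025 genes with windows of the same length. NF-Y words (CCAAT on either strand) occurred in 22 of the 35 (62.9%) against 41.1% of all genes, and CHR words (TTTGAA or TTCGAA on either strand) in 7 of the 35 (20%) against 21.7%. Of the genes called lower outside GPC_8 and GPC_9, 10 of 26 with a window held an E2F word, and of the genes not called lower there 3 of 9 did. The words overlap one another in places and a match is a description of letters only. The following stretches are the 200 bases just before the start, 5′ to 3′ on the gene's strand, with E2F words in capitals, shown for 3 helicase genes and *Cdc6* that fell, for *Pola1* that was not called outside the progenitor clusters and yet holds a word, and for *Rfc1* that was not called and holds none.
Mcm5 (chr8:75109309-75109508, plus strand): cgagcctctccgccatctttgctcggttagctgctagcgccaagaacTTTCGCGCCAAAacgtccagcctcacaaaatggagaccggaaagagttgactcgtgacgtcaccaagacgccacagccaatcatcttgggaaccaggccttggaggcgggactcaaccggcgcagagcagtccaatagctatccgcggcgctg
Mcm6 (chr1:128359706-128359905, minus strand): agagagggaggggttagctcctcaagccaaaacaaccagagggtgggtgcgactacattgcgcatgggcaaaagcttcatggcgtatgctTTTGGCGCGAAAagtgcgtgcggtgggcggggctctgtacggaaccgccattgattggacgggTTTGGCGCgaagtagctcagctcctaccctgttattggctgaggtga
Mcm7 (chr5:138171884-138172083, minus strand): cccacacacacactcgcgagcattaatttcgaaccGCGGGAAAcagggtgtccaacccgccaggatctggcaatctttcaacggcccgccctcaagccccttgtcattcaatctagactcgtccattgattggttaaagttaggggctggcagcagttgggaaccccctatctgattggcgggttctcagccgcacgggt
Cdc6 (chr11:98907951-98908150, plus strand): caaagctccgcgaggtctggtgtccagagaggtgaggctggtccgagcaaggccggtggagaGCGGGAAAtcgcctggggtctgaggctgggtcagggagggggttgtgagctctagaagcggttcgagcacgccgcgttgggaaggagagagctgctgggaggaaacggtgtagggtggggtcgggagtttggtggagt
Pola1 (chrX:93632156-93632355, minus strand): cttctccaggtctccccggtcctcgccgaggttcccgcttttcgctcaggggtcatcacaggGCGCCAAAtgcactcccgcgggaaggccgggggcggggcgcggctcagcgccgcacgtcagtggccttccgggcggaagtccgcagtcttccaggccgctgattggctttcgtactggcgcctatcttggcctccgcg
Rfc1 (chr5:65335640-65335839, minus strand): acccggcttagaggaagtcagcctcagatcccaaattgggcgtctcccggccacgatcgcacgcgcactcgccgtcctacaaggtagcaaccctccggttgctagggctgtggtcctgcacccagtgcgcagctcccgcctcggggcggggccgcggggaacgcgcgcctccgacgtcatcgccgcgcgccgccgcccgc
In *Mcm5* the words TTTCGCGC and TTTGGCGC, the latter on the opposite strand, overlap in 1 run of capitals 153 to 142 bases before the start. *Mcm6* carries such an overlapping run 110 to 99 bases before the start and a further word 47 to 40 bases before it.

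Where the P3 transcripts lay was described by the share of each gene's astroglial UMIs that came from GPC_8 and GPC_9. These clusters were formed on the expression of the same cells, so the shares and the ratios that follow are given with no test. The 2 clusters held 12.6% ± 2.20 (SD, n = 3 libraries) of P3 astroglial cells and 23.0% ± 1.23 of their UMIs, but 51.9% ± 2.21 of the UMIs of the 43 genes (53.4%, 53.0% and 49.4% in the libraries). With cells thinned to 2000 UMIs, and the 1113 P3 astroglial cells below that depth left out, the share of cells was 13.9% and that of the replication genes 38.9%. In 26 of the 43 genes the share was above 50%, or in 11 after thinning. It ran from 28.9% ± 1.20 for *Rfc1* to 91.9% ± 2.60 for *Esco2*. *Tk1* (83.3% ± 3.39), *Rrm2* (79.2% ± 2.99), *Mcm10* (72% ± 4.19), *Tyms* (69.3% ± 2.20) and *Pole* (67.4% ± 0.991) came next below *Esco2*. *Rpa3* (32.5% ± 1.54), *Gins4* (32.8% ± 6.57), *Rpa1* (32.9% ± 2.86) and *Orc6* (35.9% ± 1.79) were nearest to *Rfc1*. These genes at the low end were not called outside the progenitor clusters. Other genes not called there lay higher, from *Prim2* (43.1%) and *Pola2* (44.0%) up to *Gins3* (58.1%), while *Pold2* (40.9%) and *Rfc2* (41.5%) were called. The helicase genes lay in between and close together, from 44.3% ± 1.89 for *Mcm4* to 56.5% ± 0.566 for *Mcm5*.

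**Figure D2:**
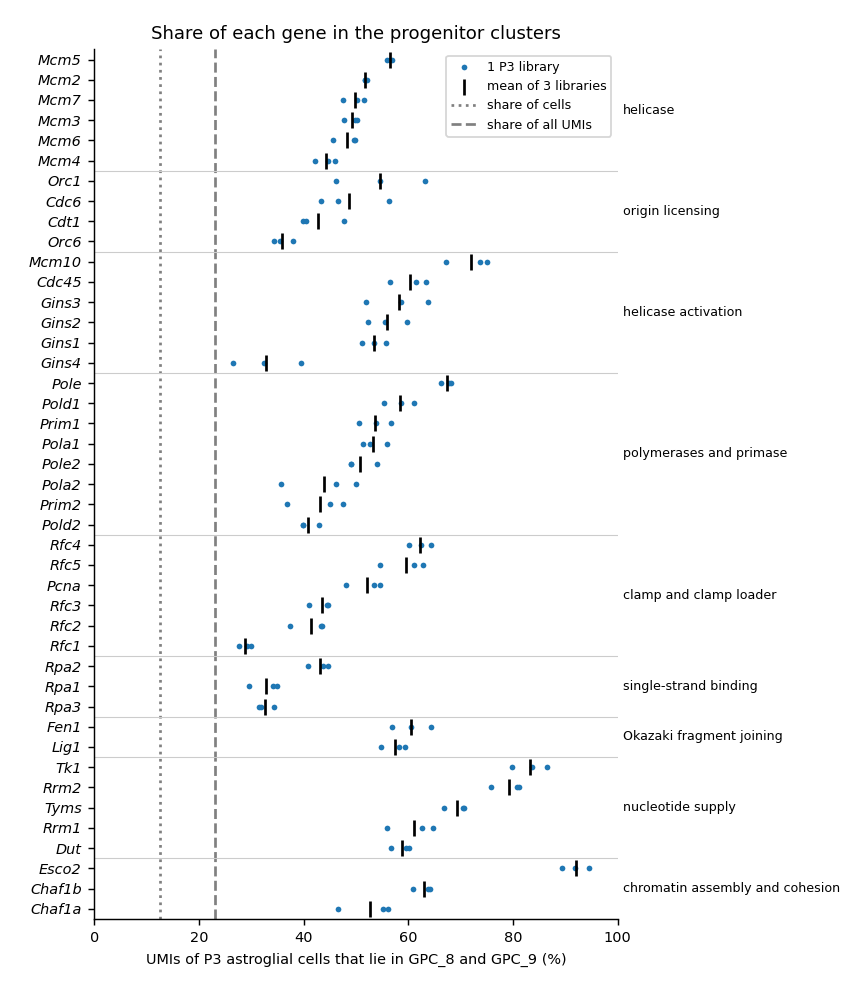
Share of each gene's UMIs in P3 astroglial cells that came from the clusters GPC_8 and GPC_9 (percent, points for the 3 libraries, bars for their mean), with dotted and dashed lines at the share of cells and of all UMIs. All 43 genes lay to the right of the dashed line at 23.0%, from *Rfc1* at 28.9% to *Esco2* at 91.9%.

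The progenitor clusters differed in how much of the program they carried. The 43 genes summed to 5486, 4436 and 5436 CPM in GPC_8 and to 1948, 1644 and 1995 CPM in GPC_9, a ratio of 2.75 ± 0.0617 (SD, n = 3 libraries). In 42 of the 43 genes the level was higher in GPC_8 in all 3 libraries, and *Orc1*, with 24 and 18 UMIs in the clusters, was the exception. The share of all genes higher in GPC_8 in all 3 libraries was not computed, so this count cannot set the genes apart from others. The proliferation markers were closer between the clusters. *Top2a* was at 939, 676 and 811 CPM in GPC_8 and 834, 477 and 671 CPM in GPC_9, *Cdk1* at 412, 448 and 469 CPM in GPC_8 and 528, 494 and 505 CPM in GPC_9, and *Mki67* at 461, 282 and 322 CPM and 482, 288 and 327 CPM. The ratio was largest in *Cdc6*, whose GPC_9 level rested on 16 UMIs (21.9, 14.5 and 25.4 CPM in GPC_8 against 2.88, 0.396 and 3.16 CPM), followed by *Chaf1b* at 10.2 ± 2.39, *Lig1* at 7.48 ± 1.49, *Mcm6* at 6.02 ± 1.08 and *Cdc45* at 5.88 ± 0.742. The smallest ratios apart from *Orc1* were those of *Rrm1* at 1.62 ± 0.106, *Rpa3* at 1.63 ± 0.172, *Pold2* at 1.82 ± 0.308 and *Rfc5* at 1.85 ± 0.170. *Rrm2*, whose product pairs with that of *Rrm1*, was at 2.31 ± 0.109. Median depth was higher in GPC_8 (15083 to 19050 UMIs per cell against 10628 to 15092.5), and in cells thinned to 2000 UMIs the ratio of the sum was 3.10 ± 0.203.

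Single cells showed the same order on average. In cells thinned to 2000 UMIs, with shallower cells left out, a GPC_8 cell held UMIs of 7.57 to 8.83 of the 43 genes on average (26.7 to 29.8 before thinning), a GPC_9 cell of 2.88 to 3.27, a P3 astroglial cell outside the clusters of 1.60 to 1.76, and a 3m astroglial cell of 0.711 to 0.777. UMIs of 5 or more of the genes were found in 81.3% to 88.8% of GPC_8 cells, 16.8% to 28.3% of GPC_9 cells, 5.85% to 6.82% of other P3 astroglial cells and in no 3m astroglial cell. In 3m oligodendrocytes, which have left the cell cycle, 0.844% to 0.985% of cells did. The P3 clusters outside GPC_8 and GPC_9 were not alike. AST_P3_3 cells held UMIs of 2.38 to 3.06 genes, with 5 or more in 16.9% to 24.0%, close to GPC_9. AST_P3_19 cells held 2.49 to 3.09, and those of AST_P3_0, AST_P3_1, AST_P3_11 and AST_P3_15 held 1.17 to 1.95. AST_P3_4 stood at 3.40 in P3 replicate 3, from 103 cells with 880 left out. The share that free RNA gives was not measured. At 3m, 16, 141 and 55 astroglial cells of the libraries had under 2000 UMIs and were left out, against 48, 118 and 947 at P3.

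Along the pseudotime that the authors computed from a start in their sub-cluster 6, the replication genes did not decline evenly. Pseudotime was built on the expression of these cells, and the bins compared here were picked after their values were seen, so the values are given with no test. The 43 genes summed to 7309, 5219 and 6289 CPM in bin 3, fell to 1869, 1764 and 1943 CPM in bin 8 and 1493, 1756 and 2301 CPM in bin 9, stood at 3253, 2657 and 3331 CPM in bin 11 and at 689, 635 and 661 CPM in bin 14. Most cells of bins 2 to 6 were of GPC_8, most of bins 7 to 10 of GPC_9, and most of bin 11 of AST_P3_3, an early postnatal astrocyte cluster. Every P3 library had more in bins 10 and 11 than in bin 8. All 43 genes had their highest level in bins 2 to 6, 23 of them in bin 2. From bins 8 and 9 together to bins 10 and 11 together the level was higher in 36 of the 43 genes and at least 2 times as high in 18. These counts over bins were not computed for all genes, so they cannot set the 43 apart from others.

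All 6 helicase genes were among those with a higher level in bins 10 and 11. *Cdc6* went from 29.6 CPM in bins 2 and 3 to 1.72 CPM in bins 8 and 9 and 23.8 CPM in bins 10 and 11. *Chaf1b* went from 76.7 to 6.04 and 34.2 CPM, and *Mcm6* from 203 to 26.7 and 115 CPM. The ratio of bins 10 and 11 to bins 8 and 9 was 13.8 for *Cdc6*, from 4 UMIs against 175, 5.67 for *Chaf1b*, 4.83 for *Pole2*, 4.32 for *Mcm6*, 4.14 for *Cdt1*, 3.93 for *Cdc45* and 3.88 for *Lig1*, and between 2.18 and 2.91 for the other 5 helicase genes. It was below 1 for *Esco2* (0.679), *Rfc5* (0.815), *Pole* (0.828), *Orc1* (0.850), *Rrm1* (0.852), *Rrm2* (0.901) and *Rpa3* (0.960). *Esco2* had its highest level in bin 5 (189 CPM) and *Rrm1* and *Pola1* in bin 6 (208 and 66.7 CPM). Over the same bins *Top2a* was highest in bin 7 and its ratio was 0.296, that of *Cdk1* was 0.217 and that of *Mki67* was 0.248.

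**Figure D3:**
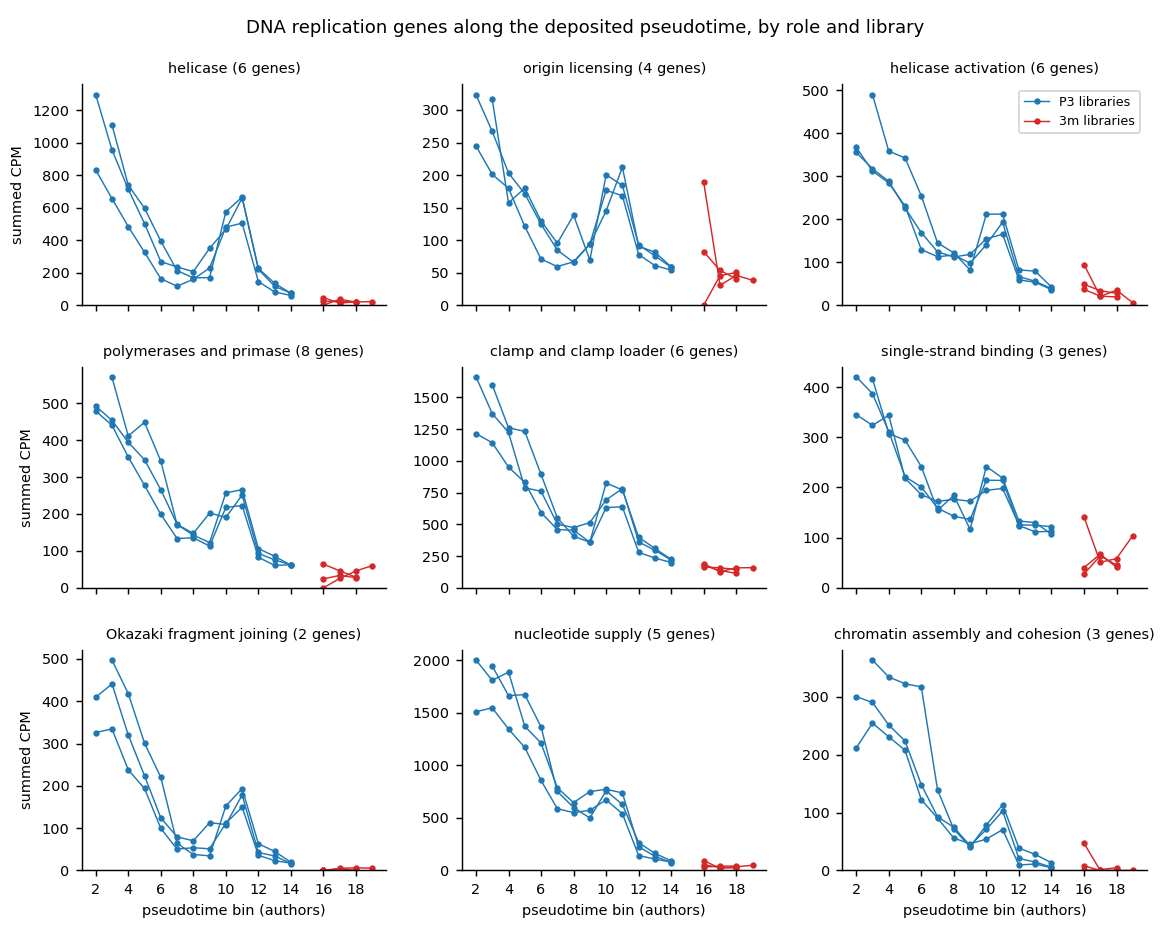
Summed level (CPM) of the genes of each role by pseudotime bin of the authors, 1 line per library with at least 10 cells in the bin, P3 in blue and 3m in red. In the helicase panel the 3 P3 libraries go down to a dip in bins 7 to 9, up to bin 11 and down again to bin 14, while chromatin assembly and cohesion and nucleotide supply show a smaller second peak relative to the first.

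Outside the astroglial clusters the summed level was also high in several P3 clusters. Pericytes at P3 (PER_6, 628 cells) summed to 1767 to 1869 CPM and the endothelial cluster END_7 (605 cells) to 1158 to 1473 CPM, against 516 to 634 CPM in the 3m endothelial cluster END_17. Microglia (MIC_16), with at least 17 cells in every library of both ages, summed to 1467, 1451 and 1795 CPM in 124 P3 cells and to 435, 347 and 375 CPM in 60 cells at 3m. In P3 microglia *Pcna* was at 167, 137 and 166 CPM against 79.0, 59.6 and 56.2 CPM at 3m, and *Mcm5* had 36 UMIs (28.5, 39.5 and 51.8 CPM) and at 3m a single one. Oligodendrocytes, present at 3m only, summed to 673, 678 and 642 CPM, above the 390, 358 and 375 CPM of 3m astroglia in every library. Within the astroglial clusters, AST_P3_4 stood high (2030 to 4417 CPM), but 983 of its 1034 cells came from P3 replicate 3 and its median depth there was 1004 UMIs per cell.

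**Figure D4:**
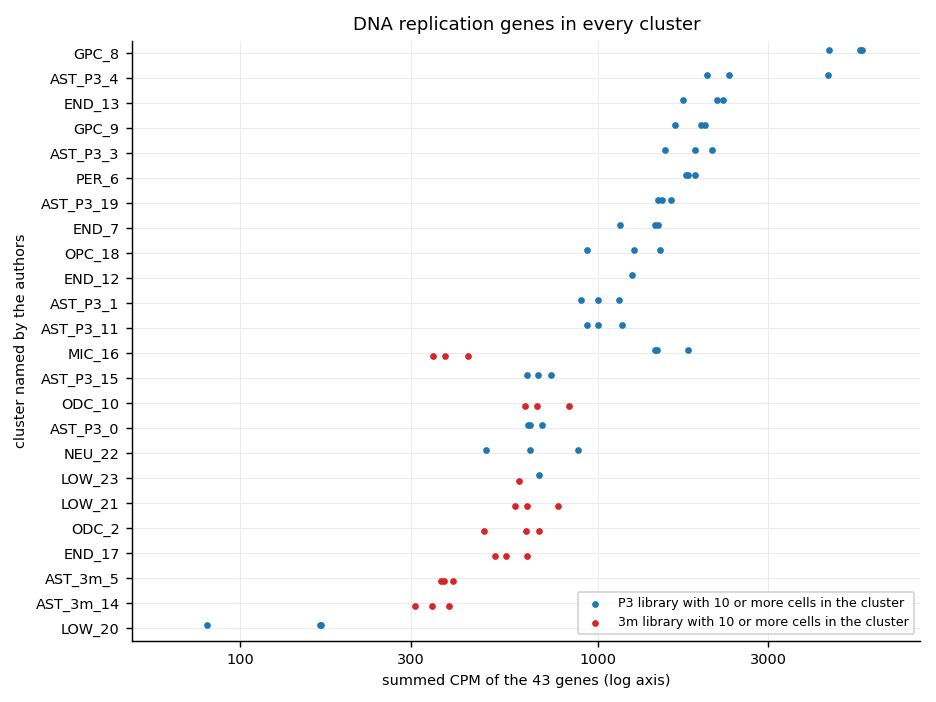
Summed level of the 43 genes (CPM, logarithmic axis) in every cluster named by the authors, 1 point per library with at least 10 cells in the cluster, P3 in blue and 3m in red. GPC_8 is at the top (4436 to 5486 CPM), and the 3m clusters lie between 308 and 833 CPM.

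Over all barcodes, where oligodendrocytes make up much of the 3m sums, 33 of 43 genes were called lower at 3m and none higher, with 16.1% of 15407 genes tested called lower and 18.4% higher, and a median difference of -2.11. These sums hold barcodes that the authors did not annotate: the 3m libraries had 1653, 1769 and 1308 barcodes, of which 801, 1399 and 985 were annotated cells. With annotated cells only, 30 genes of the set were called lower and 1 higher. *Gins4* went against the rest: at 27.4, 29.1 and 26.7 CPM at P3 and 49.3, 45.2 and 45.9 CPM at 3m, its difference was 0.94 (SE 0.12, adjusted p = 0.000219), just short of the threshold, and no library overlapped. In 3m oligodendrocytes *Gins4* was at 79.5, 65.6 and 74.5 CPM, and in 3m astroglia at 19.9, 17.9 and 17 CPM. *Fen1* was at 14.1, 16.8 and 11.1 CPM in oligodendrocytes against 1.73, 0.549 and 0 CPM in the 3m astrocyte clusters, and *Pcna* at 83.4, 85.8 and 69.7 CPM against 38.0, 37.3 and 34.7 CPM. *Rrm2*, *Cdc6* and *Tk1* were near 0 in both, and oligodendrocytes held 2, 2 and 1 UMIs of them in 1731 cells. Other genes of the set, such as *Fen1* and *Pcna*, were not as low in oligodendrocytes. The clusters were formed on these cells' expression, and these differences between clusters were not tested. Besides *Gins4*, the genes not called over all barcodes were *Orc6*, *Pcna*, *Pola2*, *Pold2*, *Prim2*, *Rfc1*, *Rfc2*, *Rpa1* and *Rpa3*. *Orc1* was called lower there (119 UMIs at P3 and 3 at 3m, ratio 8.69, 95% counting interval 2.90 to 42.7). Among the 52 other replication genes 1 was called higher, *Rrm2b*, the p53-inducible reductase subunit of cells outside S phase, at 23.1, 19.2 and 24.4 CPM at P3 and 37.0, 50.2 and 47.3 CPM at 3m (difference 1.20, SE 0.15, adjusted p = 0.000172).

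A small P3 cluster, AST_P3_19, carried some of the genes and not others. Its 96 cells were led by genes of multiciliated cells, and *Foxj1*, a master regulator of motile cilia, was at 809, 713 and 1116 CPM there. *Lig1* was at 267, 219 and 266 CPM, against 31.5, 24.6 and 26.6 CPM in the other P3 astrocyte clusters and 261, 186 and 248 CPM in GPC_8. *Chaf1a* was at 29.7, 41.8 and 56.0 CPM against 7.61, 5.32 and 7.88 CPM, and *Gins4* at 44.5, 62.7 and 56.0 CPM against 22.1, 26.7 and 25 CPM. In contrast, *Mcm5* (0, 4.18 and 3.39 CPM), *Tk1* (0, 2.09 and 5.09 CPM) and *Esco2* (0, 0 and 3.39 CPM) rested on 4, 4 and 2 UMIs, and *Mcm10* had none. Of the proliferation markers, *Top2a* (260, 167 and 415 CPM) and *Cdk1* (230, 142 and 236 CPM) were high and *Mki67* (7.42, 8.36 and 5.09 CPM) was low. With AST_P3_19 left out, 37 genes of the set were called lower in the astroglial sums and 32 outside the progenitor clusters, as with it.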

How the data were processed

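Astroglial cells were isolated from the mouse striatum at P3 and at 3 months and profiled by droplet RNA-Seq, with 3 libraries per age. The authors deposited raw UMI counts per gene and cell, made with Cell Ranger count on mm10, and a table of cells with other annotation: cluster names from SCTransform and Seurat (3.1.1 in the submitters' processing notes, another version in the study's methods) at resolutions 0.6 and 0.7, sub-clusters, and Slingshot pseudotime bins. The annotated cells were those of the 16690 barcodes with over 500 genes and under 10% mitochondrial UMIs (14373). Removal of doublets is not given in the sources used here and no doublet caller was run.

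Counts were summed per library over all barcodes, over astroglial cells, and over astroglial cells outside GPC_8 and GPC_9. Ages were compared with edgeR 4.0.16 (R 4.3.3, filterByExpr with a minimum count of 10, TMM scaling, quasi-likelihood test, Benjamini-Hochberg adjustment over all genes tested). Called means an adjusted p of at most 0.05 and a log2 difference of at least 1. CPM are UMIs scaled to a library sum of 1000000, without TMM. Where an age had no UMI of a gene, 3 UMIs for all its libraries together set the bound. Ratios that rest on 1 to 3 UMIs carry an exact 95% interval, which covers counting error only. Per-cell shares were computed after thinning to 2000 UMIs, with shallower cells left out. Scripts were tested on simulated data. Python 3.11.15, pandas 2.3.3, NumPy 2.4.6, SciPy 1.17.1 and matplotlib 3.10.9 were used.

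The genes and lists were chosen with earlier results of these data known. Values in every library were given for the 2 genes of each role with the highest P3 level, for those not called lower outside GPC_8 and GPC_9, and for some others chosen after their values were seen. Alternatives were other scalings, filters, cells and depths, DESeq2 1.42.0, a replicate block, and leaving out each library.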

Additional observations from a re-analysis of the deposited data

How the results depend on the processing

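In astroglial cells, 37 of 43 genes tested were called lower without a 3m library (2128 to 2291 of 14682 to 14822 among all genes). Without a P3 library it was 34 to 35 of 39 to 40 tested (1572 to 1735 of 10600 to 10696). Outside GPC_8 and GPC_9 it was 31 to 35 of 43 tested without a 3m library (1653 to 1884 of 14295 to 14397). Without a P3 library it was 26 to 27 of 35 tested there (1221 to 1436 of 10485 to 10590), the lowest without P3 replicate 2. Over all barcodes the count was 32 to 33 of 42 to 43 tested with 1 library left out (2185 to 2755 of 14582 to 16336 among all genes). It was 30 of 43 with annotated cells only (2482 of 15134) and 30 of 41 with thinned sums (2008 of 13268). In the cells over 1000 genes it was 29 of 43 (2408 of 14819). Outside the progenitor clusters, in place of 32, the count was 20 with sums thinned to the smallest library, 21 in cells held to more than 1000 genes and less than 5% of mitochondrial UMIs, and 18 without cells with a UMI of *Mki67*, *Top2a* or *Cdk1*, where 1 gene, *Pola2*, was called higher. The cause was not tested, but thinning also left fewer genes of the set tested (28). The cells over 1000 genes included only 12, 137 and 88 astroglial cells in the 3m libraries, with 50876, 507515 and 355535 UMIs. Over all barcodes, where 0 to 1 genes were called higher with 1 library left out, 1 gene, *Gins4*, was called higher with annotated cells only (1.18), with thinned sums (1.10), in the cells over 1000 genes (1.23) and without P3 replicate 2 (1.03). The astroglial difference of *Pola2*, not called in any of these settings, turned from 0.06 to -0.067 without a filter, -0.14 without scaling, -0.30 in the cells over 1000 genes, -0.14 in telencephalic sub-clusters, -0.26 without 3m replicate 2 and -0.094 without 3m replicate 3, with a range from -0.26 to 0.27 over all libraries left out in turn. That of *Orc1* was 0.19 in the cells over 1000 genes, and that of *Gins4* outside the progenitor clusters 0.16 in telencephalic sub-clusters, neither called. Without scaling beyond library totals the median over all genes moved from -0.04 to -0.24 in astroglial cells, and 61.4% of called genes were lower in place of 50.7%. Outside the progenitor clusters it was 62.0% in place of 48.5%. Of all genes, 1302 in place of 2204 were called lower in astroglial cells with thinned sums and 1322 in place of 2140 higher in the cells over 1000 genes. Outside the progenitor clusters these were 1030 in place of 1796 and 1121 in place of 1906. Of the other replication genes, 31 were called lower there, but 14 with thinned sums, 15 in the cells over 1000 genes, 14 without cells with a proliferation marker, and 20 without P3 replicate 2 or 3. The share of the set's UMIs in the progenitor clusters was 56.2% with sub-clusters 6 and 8 in their place and 38.9% in thinned cells, and the ratio of GPC_8 to GPC_9 was 2.92 and 3.10.

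With the replicate number as a block, 37, 32 and 33 genes were called lower in astroglial cells, outside GPC_8 and GPC_9 and over all barcodes, the counts found without it. Deviations of same-numbered astroglial libraries correlated at 0.206, 0.0993 and 0.0390, and P3 replicate 3 correlated better with 3m replicate 2 (0.142). Over all barcodes the correlations were 0.481, 0.440 and -0.0049. Since not every pair was above 0.1, the numbers were not taken to pair the samples. The 3m sums limit what can be seen, since 13 of the 43 genes had at most 3 astroglial UMIs there.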

Other observations

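*Prim2*, the large primase subunit, was at 87.3, 57.7 and 67.9 CPM in the libraries of the P3 astrocyte cluster AST_P3_11 (412 cells). It was at 15.5, 16.7 and 18.0 CPM in all P3 astroglial cells outside GPC_8 and GPC_9, a pool that includes AST_P3_11. In P3 cells of pseudotime bins 2 and 3, mostly of GPC_8, *Prim2* was at 62.2 CPM. The clusters were formed on these cells' expression, and the differences were not tested.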
